A study of Sus scrofa with 48 samples.

Results

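Macrophage and myeloid cell genes were followed in PRAT (perirenal adipose tissue, the fat that surrounds the kidneys) of 48 pigs. The list of 30 genes was taken by name. Of these, 26 had a probe whose gene name in the scanner files was that of the member, and together they held 71 probes, of which the authors kept 64. No probe carried the names ITGAM, MARCO, LYN or CX3CR1. Each gene was read from its probe with the highest mean signal, and all 26 chosen probes were among the 38142 probes kept, out of 60306 on the array.

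The pigs were castrated Large White males, labelled 132 days old, with free access to feed. They fell into 4 groups of 12. The high-fat high-fiber (HF) diet replaced part of the cereal starch of the low-fat high-starch (LF) diet by plant oils and wheat straw. Energy and protein content of the feed were the same, so fat, fiber and starch changed together and cannot be told apart. The study reports that HF pigs also ate less, were lighter at the end and had relatively less perirenal fat. These differences came with the diet and cannot be told apart from it either. Within each diet, 12 belonged to the line RFIneg, bred for low residual feed intake (RFI), and 12 to the line RFIpl, bred for high RFI. RFI is the feed eaten beyond what growth and maintenance predict, so low RFI pigs are the more efficient ones. Each line is a single selected population, and pieces of whole tissue were homogenised, with no sorting of cells. Cy3-labelled RNA from every pig went onto 1 one-colour array of its own. Values are log2 Cy3 signal relative to the median kept probe of the same array, so a value below 0 is a probe dimmer than that median. Differences are HF minus LF (24 pigs each) or low minus high RFI (24 pigs each) with the standard error (SE) of the fit in limma, which took diet, line and their interaction. A probe was called at the thresholds of the study, that is a raw p under 0.01, a fold change over 1.1 and a Benjamini-Hochberg (BH) adjusted p under 0.08 over all kept probes.

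Macrophages are the resident phagocytes of adipose tissue. The growth factor receptor CSF1R and the transcription factor PU.1, made from SPI1, establish and maintain the lineage. Scavenger and mannose receptors such as CD163 and MRC1 mark resident cells and take up ligands, which are degraded by cathepsins and legumain in lysosomes. Receptors without a signalling tail of their own pair with the small adapters TYROBP and FCER1G, whose phosphorylated motifs recruit kinases and, through LCP2 and VAV1, reorganise actin. CD53, the integrin chain ITGB2, PTPRC (CD45) and the actin regulators NCKAP1L and LCP1 are used by most leukocytes, not by macrophages alone. In whole tissue, fewer cells of a type and less RNA per cell cannot be told apart.

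Arrays lay on 6 slides with 8 arrays each, 2 of every group per slide, scanned on 2 days. Between 35787 and 38118 kept probes per array stood well above background, with a median signal of 382 to 638 and 0 saturated kept spots. All 12 adipocyte markers listed, ADIPOQ, PLIN1 and FABP4 among them, stood well above background on each of the 48 arrays, as did 23 of the 26 members. CD68 was well above background on 42 arrays, CYTH4 on 45 and SPI1 on 47. Labels or methods did not state whether the pigs of a group shared a litter or pen.

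Probe sequences are shown where they bear on a reading, as stretches of 30 bases of 60-base probes, 5′ to 3′, in the letters of the scanner files. For TYROBP, the probe used and a second one overlapped by 42 bases, and the last was identical to the second, so their readings were not separate measurements. Capitals mark the bases that both windows share:
TYROBP, second probe: agtattacaaatgagcccAAATCAGGACAG
TYROBP, probe used: AAATCAGGACAGtcatcaacccgatgcctg
For LAPTM5, both probes covered the same 60 bases and differed by A46G, counted from 1 at the 5′ end with the probe used first. The capital marks that base in positions 31 to 60:
LAPTM5, probe used: ttcagtcagaacaagAcaaaccctttgctg
LAPTM5, second probe: ttcagtcagaacaagGcaaaccctttgctg
For CD68, the probe of that name shared no run over 5 bases, on either strand, with a pair of probes that the study's list names CD68 or describes as macrosialin-like. These shared an unbroken run of 54 bases with each other, which the capitals mark as far as it is shown:
CD68, probe of that name: aaagcacagggacacctacggctacagaaa
Macrosialin-like, first probe: tatgaTTGATTTCCCTTCCCCTACTTCCAG
Macrosialin-like, second probe: TTGATTTCCCTTCCCCTACTTCCAGAGAGA
For CYTH4, the 2 probes of that name shared no run over 6 bases on either strand:
CYTH4, probe used: tgagcacaaactgctgagccctgatgtcca
CYTH4, second probe: tcgaagtaatagaggcagttgtccgtgagg
For the most strongly covarying pair, CD163 and MRC1, the probes shared no run over 5 bases:
CD163, probe used: ggaaaatgggaattataacctggtgagttc
MRC1, probe used: gaatattgcagatgtgtcctttgtcctgtt
Over all 26 probes used, no pair from different members shared a run over 11 bases.

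Diet. On the HF diet, 24 of the 26 members had a difference above 0, 15 were called higher and none lower. Over all kept probes, 24.5% were called by diet, 8.94% as higher in HF and 15.5% as lower. Among 8453 genes with a symbol, 6.33% were called higher, 18.9% lower, and a difference above 0 was seen in 36.5%. The median difference was 0.35 over the members and -0.05 over these genes. The members that rose were CD209, CD163 and MRC1 (1.58- to 1.83-fold), the lineage genes CSF1R and AIF1, the adapters and actin regulators TYROBP, FCER1G, VAV1, NCKAP1L and CYTH4, the leukocyte surface genes CD53, ITGB2 and PTPRC, and LAPTM5 and FOLR1. The ranges of HF and LF pigs overlapped for every one of the 26 members.

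The count carries a limit of choice. Of the 26 members, 15 are named in the study's own list of covarying probes, which was drawn from probes changed by diet in these same pigs. In these 15, 14 were called higher, which is not independent evidence of their direction. In the other 11, the count was 1 (PTPRC), beside the 6.33% over genes with a symbol, with a median difference of 0.21, and 9 of 11 were above 0. The centring also matters to the split of calls. With the deposited centring 36.5% of called probes were higher in HF, against 62.8% and 62.0% when the processed or the median signal was centred on the 75th percentile, 51.7% after normexp, 50.1% after quantile normalization and 89.1% after centring on spike-in transcripts. The spike-in centring moved the median of all probes from -0.02 to 0.10, and the median of the members from 0.35 to 0.48. No member was called lower under any of these scalings.

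**Figure D1:**
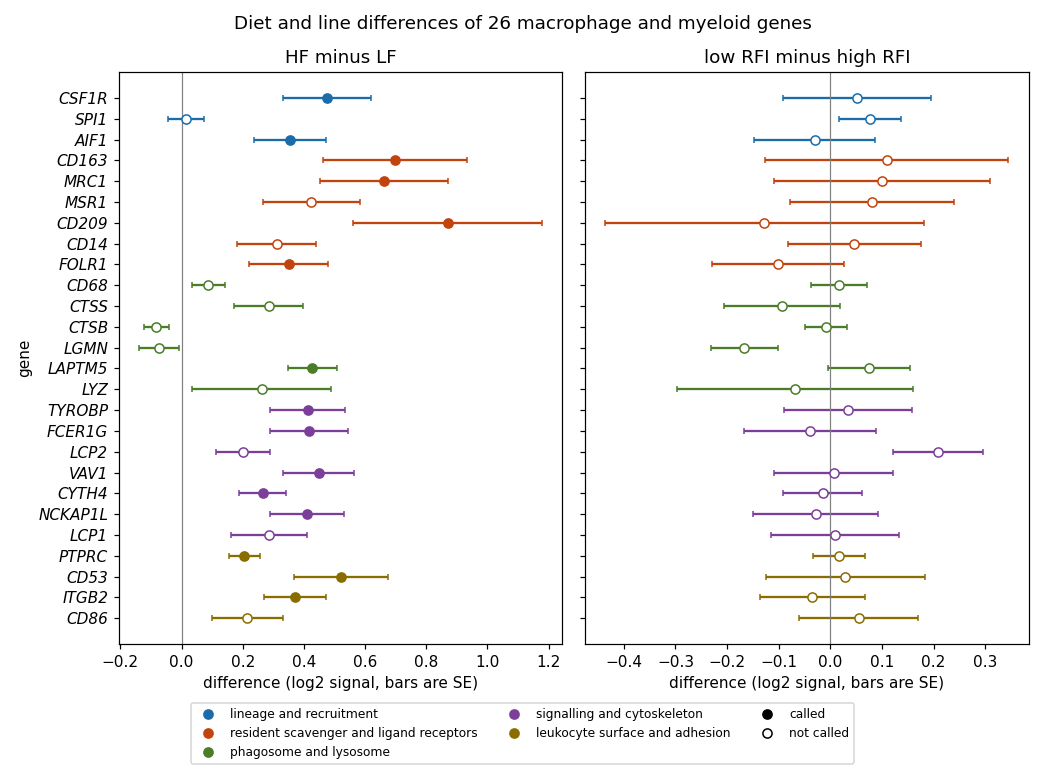
Difference of each of the 26 members (one row per gene, coloured by role) between diets (left, HF minus LF) and between lines (right, low minus high RFI), in log2 signal, with bars for the SE. Filled points were called: 15 members, all above 0, in the diet panel and none in the line panel.

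Lineage genes. CSF1R, the receptor for the growth factors that macrophages need to survive, ran from -2.34 to -0.15 (median -1.11) in HF pigs and from -2.38 to -0.66 (median -1.68) in LF pigs. It was higher by 0.48 ± 0.14 (SE), or 1.39-fold (BH p = 0.00956), and 5 HF pigs were above every LF pig. AIF1, a calcium-binding protein of macrophages also known as IBA1, ran from 1.89 to 3.21 (median 2.64) in HF pigs and from 1.59 to 3.93 (median 2.23) in LF pigs. Its difference was 0.36 ± 0.12 (BH p = 0.0181). All 3 AIF1 probes were called higher, but the highest single value belonged to an LF pig. SPI1 was dim in both diets, from -3.24 to -2.37 (median -2.74) in HF pigs and from -3.04 to -2.17 (median -2.82) in LF pigs, with a difference of 0.02 ± 0.06 (BH p = 0.867). The groups overlapped over nearly their whole range.

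Resident scavenger and ligand receptors. All 6 measured receptors were above 0, with a median difference of 0.54, and 4 were called. CD163, which takes up haemoglobin bound to haptoglobin, ran from 1.0 to 4.09 (median 2.77) in HF pigs and from 0.44 to 3.64 (median 2.05) in LF pigs. It rose by 0.70 ± 0.24 (1.62-fold, BH p = 0.0210), and all 5 of its kept probes were called. MRC1, the mannose receptor, ran from 1.06 to 3.83 (median 2.66) against 0.61 to 3.40 (median 2.01), a difference of 0.66 ± 0.21 (BH p = 0.0139). Both receptors covered several-fold ranges within each diet, and 19 of 24 HF pigs exceeded the LF median of either gene.

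CD209, a lectin of macrophages and dendritic cells that binds mannose-rich glycans, had the largest difference among the members. It also had the largest SD within groups among them (1.11, pooled over the groups). Its values ran from -2.47 to 1.43 (median -0.79) in HF pigs and from -2.53 to 0.74 (median -1.68) in LF pigs, with a difference of 0.87 ± 0.31 (1.83-fold, BH p = 0.0278). FOLR1, a membrane-anchored folate receptor, ran from 4.61 to 6.55 (median 5.72) against 4.5 to 5.79 (median 5.27). It was called at 0.35 ± 0.13 (BH p = 0.0328), with 8 HF pigs above every LF pig, but 2 of its 4 probes were called, and the call was lost in the two-way analysis of variance and with replicate number or slide as a block. CD14, the co-receptor for bacterial lipopolysaccharide, ran from -0.08 to 1.78 (median 0.72) against -0.06 to 1.46 (median 0.47). Its difference of 0.31 ± 0.13 had a raw p of 0.0192, over the threshold. The scavenger receptor MSR1 missed the raw threshold by a small margin, at 0.42 ± 0.16 (raw p = 0.0104).

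Phagosome and lysosome. Of the degradative compartment, 4 of 6 measured members were above 0 and 1 was called, with a median difference of 0.18. LAPTM5, a lysosomal membrane protein of blood-forming cells, had the smallest BH p of all members. It ran from 1.64 to 2.73 (median 2.01) in HF pigs and from 1.1 to 2.46 (median 1.56) in LF pigs, a difference of 0.43 ± 0.08 (1.35-fold, BH p = 7.47e-05). All 24 HF pigs exceeded the LF median, and 16 LF pigs were below every HF pig. Its second probe gave 0.44.

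None of the proteases was called. CTSB, a cysteine cathepsin made by most cells, differed by -0.08 ± 0.04 (BH p = 0.119), and its 7 probes ranged from -0.11 to -0.06. LGMN, the asparaginyl endopeptidase legumain, differed by -0.07 ± 0.06 (BH p = 0.395). CTSS, a cathepsin largely of antigen-presenting cells, differed by 0.28 ± 0.11 (raw p = 0.0148). LYZ, the secreted enzyme lysozyme that cleaves bacterial cell walls, differed by 0.26 ± 0.23, with the highest value of 2.55 in an LF pig.

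CD68, the macrophage lysosomal glycoprotein macrosialin, depended on the probe. The probe of that name was dim, from -3.21 to -2.44 (median -2.93) in HF pigs and from -3.22 to -2.61 (median -2.99) in LF pigs, with a difference of 0.09 ± 0.05 (BH p = 0.223). The macrosialin-like pair, taken from the study's list and added here after values were seen, were called at 0.59 (BH p = 0.0147) and 0.56 (BH p = 0.0219). The first of them ran from 2.0 to 4.41 (median 3.16) in HF pigs and from 1.35 to 4.07 (median 2.60) in LF pigs. Since that list was drawn from probes changed by diet, these values describe the pair and do not test it, and which probe reads CD68 was not tested.

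**Figure D2:**
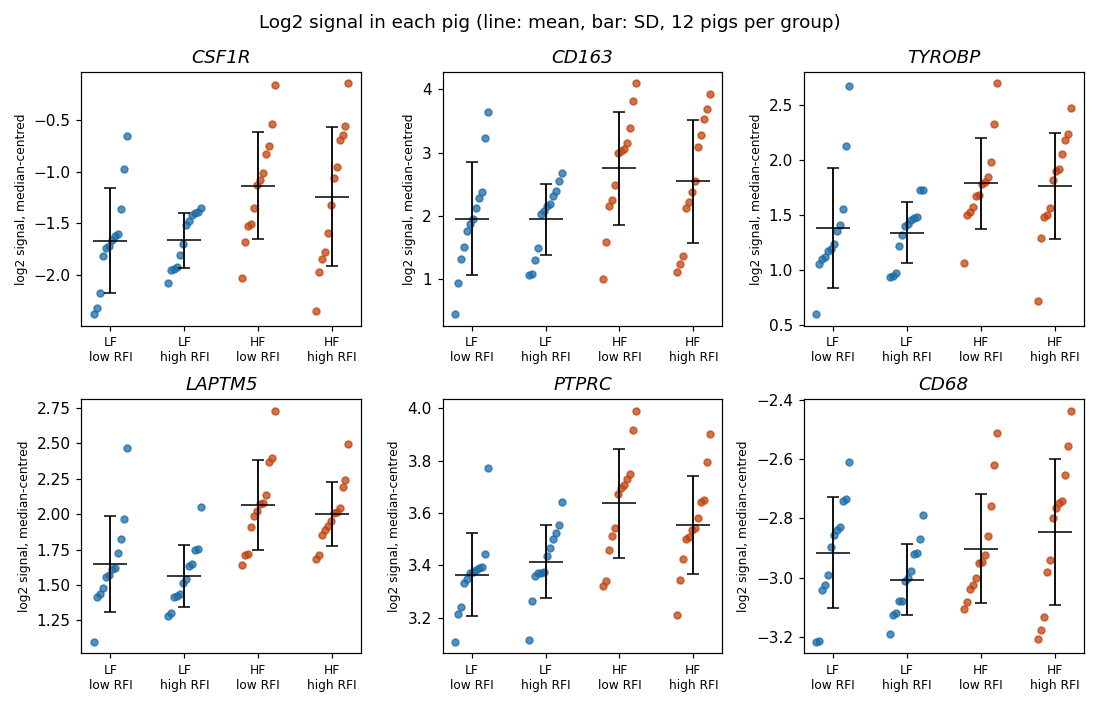
Log2 signal of 6 members in each pig (1 point per pig, 12 pigs per group, blue LF and red HF), with the group mean as a line and the SD as a bar. LAPTM5 shows the clearest shift, with 16 LF pigs below every HF pig, CSF1R, CD163 and TYROBP spread widely within each group, and the probe named CD68 sits near -3 in all 4 groups.

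Signalling and cytoskeleton. All 7 measured members were above 0 and 5 were called, with a median difference of 0.41. TYROBP, the adapter DAP12, ran from 0.71 to 2.69 (median 1.79) in HF pigs and from 0.59 to 2.67 (median 1.33) in LF pigs, a difference of 0.41 ± 0.12 (BH p = 0.00926). FCER1G, the adapter chain shared by Fc receptors, ran from 1.51 to 3.17 (median 2.27) against 0.99 to 3.17 (median 1.85), at 0.42 ± 0.13 (BH p = 0.0115). The adapters thus differed by nearly the same amount. VAV1, an exchange factor that switches on Rac, ran from 0.33 to 1.88 (median 1.11) against -0.20 to 1.90 (median 0.63) and rose by 0.45 ± 0.12 (BH p = 0.00271). NCKAP1L, a subunit of the actin-nucleating WAVE complex in blood cells, ran from -0.55 to 0.92 (median 0.25) against -0.99 to 1.18 (median -0.32) and rose by 0.41 ± 0.12 (BH p = 0.00811). For VAV1 and NCKAP1L, 22 of 24 HF pigs exceeded the LF median, while the highest pig was an LF pig. Of the 3 NCKAP1L probes, 1 was called, and the lowest gave 0.18.

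CYTH4, an exchange factor for ARF GTPases, was again read differently by different probes. The probe used ran from -3.01 to -1.85 (median -2.46) in HF pigs and from -3.15 to -2.23 (median -2.70) in LF pigs, and was called at 0.26 ± 0.08 (BH p = 0.00727). The second probe of that name gave -0.02. Another probe, which the study's list assigns to CYTH4, gave 0.42 (BH p = 0.00344). LCP1, the actin-bundling L-plastin, differed by 0.29 ± 0.12 (BH p = 0.0729) and LCP2, the scaffold SLP-76, by 0.20 ± 0.09 (BH p = 0.0755), both over the raw threshold.

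Leukocyte surface and adhesion. All 4 measured members were above 0 and 3 were called. CD53, a tetraspanin of leukocytes, ran from 1.90 to 3.70 (median 2.79) in HF pigs and from 1.59 to 3.55 (median 2.23) in LF pigs, a difference of 0.52 ± 0.15 (BH p = 0.00829). ITGB2, the beta chain shared by the leukocyte integrins, ran from 0.79 to 2.35 (median 1.41) against 0.42 to 2.0 (median 1.04), at 0.37 ± 0.10 (BH p = 0.00474). PTPRC, the phosphatase CD45 present on all nucleated blood-derived cells, differed less but with little spread, from 3.21 to 3.99 (median 3.56) against 3.11 to 3.77 (median 3.37). Its difference was 0.21 ± 0.05 (1.15-fold, BH p = 0.00196), and all 3 of its probes were called. CD86, a co-stimulatory ligand for T cells, differed by 0.21 ± 0.12 (BH p = 0.152).

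Over the 64 kept probes of the members, 55 were above 0, 30 were called higher and none lower. Of all kept probes, 43.8% were above 0 and 8.94% were called higher. The 64 were not all separate readings. The 2 FCER1G probes were identical, as were 2 of CD163 and 2 of CTSB, and 2 AIF1 probes shared 57 bases. Of the 17 members with more than 1 kept probe, 8 had all of them called. Where gene identifiers or accessions in the reference tables tied a probe of another name to a member, the probe was read as an addition made after values were seen. The 11 such probes that were kept were all above 0, and 1 was called higher. The called one was a FOLR1 probe, at 0.33 (BH p = 0.0257). Kept probes tied to CTSS in this way ranged from 0.25 to 0.31. A probe tied to LYN, a kinase that phosphorylates the adapters' motifs, differed by 0.10 (BH p = 0.104). Of the 2 probes tied to CX3CR1, the fractalkine receptor, neither was kept by the authors. One was well above background on all 48 arrays and differed by 0.32 without the filter, which was not called (raw p = 0.0105, BH p = 0.0523), and the other was dim. For MARCO and ITGAM no value is given.

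Diet was also compared within each line, with 12 against 12 pigs. In low RFI pigs 24 of 26 were above 0 and 3 were called higher (VAV1, LAPTM5 and PTPRC), where 3.1% of genes with a symbol (4.16% of probes) were. In high RFI pigs 24 were above 0 and 1 was called (LAPTM5), where 3.11% (5.39% of probes) were. Other scalings, slide as a block or array weights gave 6 to 18 called members in low RFI pigs and up to 4 in high RFI pigs. The share of all probes called within a line under these settings is not given here. For LAPTM5 the difference was 0.42 ± 0.11 among low RFI pigs, and 0.44 ± 0.11 among high RFI pigs. The interaction was called for no member and for 0.0% of the kept probes. No member had an unadjusted interaction p under 0.05 in limma, nor was any called in the two-way analysis of variance, so the diet difference was not shown to differ between lines.

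One LF pig stood apart. The member mean was taken as the mean of the 26 standardised values of a pig. It ran from -0.92 to 1.67 (median 0.24) in HF pigs and from -1.52 to 1.69 (median -0.36) in LF pigs, and it was above 0 for 17 of the 24 pigs fed HF and 6 of the 24 fed LF. The member mean takes in 15 members of the study's list, drawn from probes changed by diet. Its split by diet is thus not independent evidence. The highest of all 48 was a low RFI pig on the LF diet, number 11 in its group, at 1.69, and the next LF pig was at 0.79. This pig had the highest LF value for 15 members and the highest of all 48 for 10. Its array was not unusual in depth, with 37940 kept probes well above background and a median signal of 418.

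On the slide that held this pig, slide 6, the median member difference between diets was 0.01, and 15 of 26 members were higher in HF. On the other 5 slides, the median lay between 0.27 and 0.53 and 22 to 25 members were higher. Over all kept probes, the median difference on a slide lay between -0.03 and 0.002. The members counted include those of the study's list, so these counts are not independent evidence of direction. By scan day the medians were 0.38 and 0.33, with 23 and 24 members higher. Without the pig, 19 members were called by diet, the same 15 among them, and without its slide 20 were, again with the same 15. Over all kept probes, 25.3% were called by diet in either case, beside 24.5% with all pigs. Within low RFI pigs the count of members called went from 3 to 17 without the pig and to 19 without the slide, and within high RFI pigs from 1 to 5 and 2. The share of all probes called within a line is not given for these cases. The pig was picked for its high values on the LF diet, so leaving it out widens most differences by construction (that of CD209 went from 0.87 to 0.86), and these counts are a description. What set it apart was not tested.

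**Figure D3:**
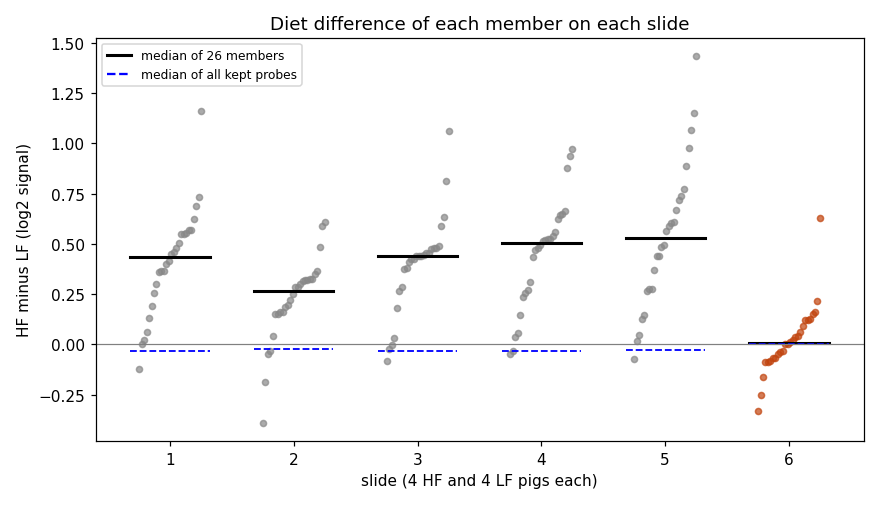
HF minus LF in log2 signal for each of the 26 members (points) on each of the 6 slides, 4 HF and 4 LF pigs per slide. The black line is the median of the members and the dashed line that of all kept probes. Between 22 and 25 members lie above 0 on slides 1 to 5, with medians from 0.27 to 0.53, and 15 on slide 6 (red), where the median was 0.01.

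Line. None of the 26 members was called between lines by limma or by the two-way analysis of variance, where 3.61% of the kept probes and 3.25% of genes with a symbol were called. Differences ran from -0.17 to 0.21, with a median of 0.01 and 15 above 0, where 51.2% of genes with a symbol were, and 2 members had an unadjusted p under 0.05. LGMN lay between -2.39 and -1.56 (median -1.99) in low RFI pigs and between -2.15 and -1.29 (median -1.80) in high RFI pigs. Its difference was -0.17 ± 0.06 (BH p = 0.194), and it was called with replicate number as a block (BH p = 0.0670). LCP2 lay between 0.20 and 1.53 (median 0.89) in low RFI pigs and between 0.20 and 1.22 (median 0.65) in high RFI pigs, at 0.21 ± 0.09 (BH p = 0.255). CSF1R, CD163, TYROBP and PTPRC differed between lines by 0.05 ± 0.14, 0.11 ± 0.24, 0.03 ± 0.12 and 0.02 ± 0.05, each less than its SE. Within HF pigs and within LF pigs no member was called either, where 1.08% and 0.477% of the probes were.

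Covariation between pigs. Correlations are Pearson's r over 48 pigs after the mean of each diet and line group was removed, and they are given as a description. The points share arrays, slides and the centring on each array's median. Over the 325 pairs of members the median r was 0.53, from -0.16 to 0.97, and 52.9% of pairs exceeded 0.5. Over all pairs of genes with a symbol the median was 0.03, and 2.56% exceeded 0.5. The study chose part of these genes for covarying, and the median was 0.75 over pairs within its list and 0.31 over pairs outside it. The first principal component held 58.9% of the variance of the 26 standardised members and the second 8.80%.

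The 5 highest pairs were CD163 with MRC1 (r = 0.97), TYROBP with FCER1G (0.95), VAV1 with NCKAP1L (0.95), VAV1 with CD53 (0.94) and AIF1 with TYROBP (0.92), with Spearman's rho from 0.91 to 0.95. Resident scavenger receptors varied closely with one another, with a median r of 0.75 over 15 pairs, the lowest at 0.43. Signalling genes had a median r of 0.53 among themselves over 21 pairs, 0.64 with the scavenger receptors over 42 pairs and 0.75 with the leukocyte surface genes over 28 pairs. The phagosome and lysosome genes held together least, with a median r of 0.21 over 15 pairs. Their median r was 0.30 with the scavenger receptors and 0.35 with the signalling genes. The mean of this group still varied with the other group means. It had r = 0.85 with the signalling mean, 0.85 with the leukocyte surface mean and 0.65 with the scavenger receptor mean. By gene, the study's list names 4 of 6 scavenger receptors, 5 of 7 signalling genes and 2 of 6 phagosome and lysosome genes. It also names every gene of the 5 highest pairs. That list was chosen for covarying in these pigs, so the contrasts between role groups are not independent evidence.

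The lowest pairs were SPI1 with PTPRC (r = -0.16), CD68 with CTSB (-0.11), CD163 with LGMN (-0.0009), CD68 with LCP1 (0.0019) and CD209 with LGMN (0.0059). CD68 read by the probe of that name, LGMN, CTSB and SPI1 had the lowest r with the mean of the other members, at 0.23, 0.23, 0.33 and 0.37. VAV1, FCER1G, TYROBP and NCKAP1L had the highest, at 0.96, 0.94, 0.93 and 0.93. The probes used for VAV1, FCER1G, TYROBP and NCKAP1L are in the study's covarying list, and those for CD68, LGMN, CTSB and SPI1 are not. CTSS and LAPTM5, of the same compartment as CTSB and LGMN, had r of 0.79 and 0.85.

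**Figure D4:**
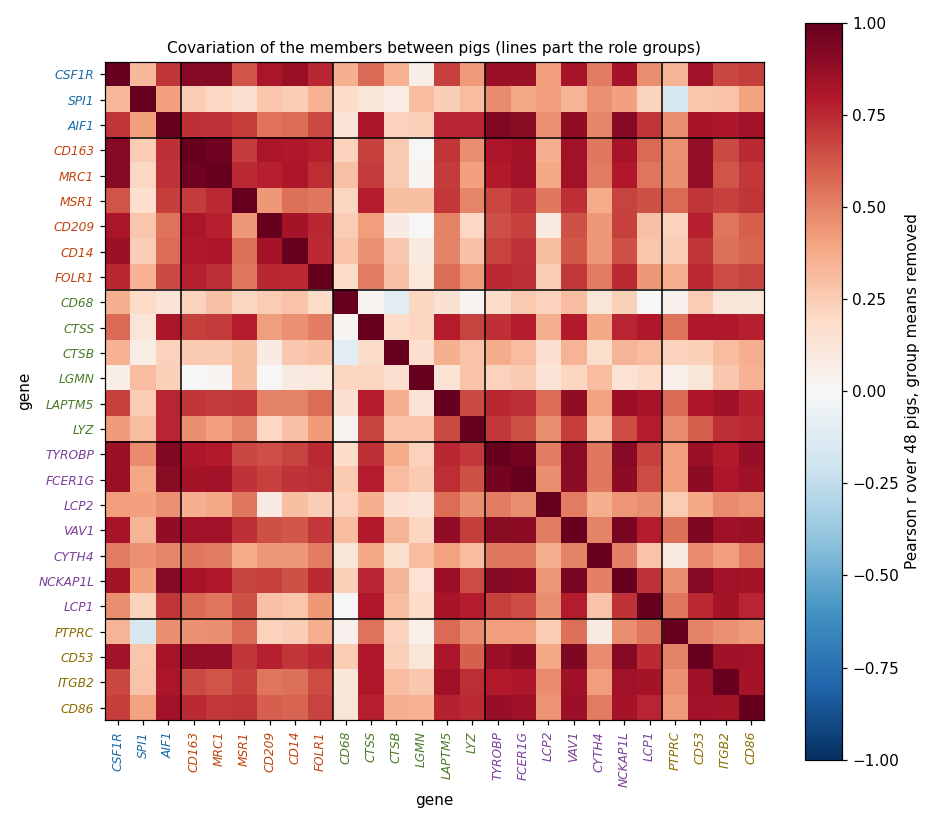
Pearson r between all pairs of the 26 members over 48 pigs after removal of group means (colour scale from -1 to 1), with lines between the role groups. Most of the map is red (median r of 0.53), and pale bands run along SPI1, CD68, CTSB and LGMN.

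Different probes of a gene could differ in their covariation. The macrosialin-like pair had r = 0.92 and 0.93 with the mean of the other members, where the probe named CD68 had 0.23. This pair and one CYTH4 probe come from the study's list, whose probes were chosen for covarying in these pigs, so their high r follows from that choice and tests nothing. For CYTH4 the values were 0.55 for the probe used, -0.34 for the second probe of that name and 0.95 for the probe of the study's list. For CTSB, 1 of 7 probes had r = -0.12 and the others 0.23 to 0.40. Every kept probe named AIF1, CD163, FCER1G, MRC1 or TYROBP had r between 0.83 and 0.94. These probes are all in the study's list as well, so the same limit holds for them.

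**Figure D5:**
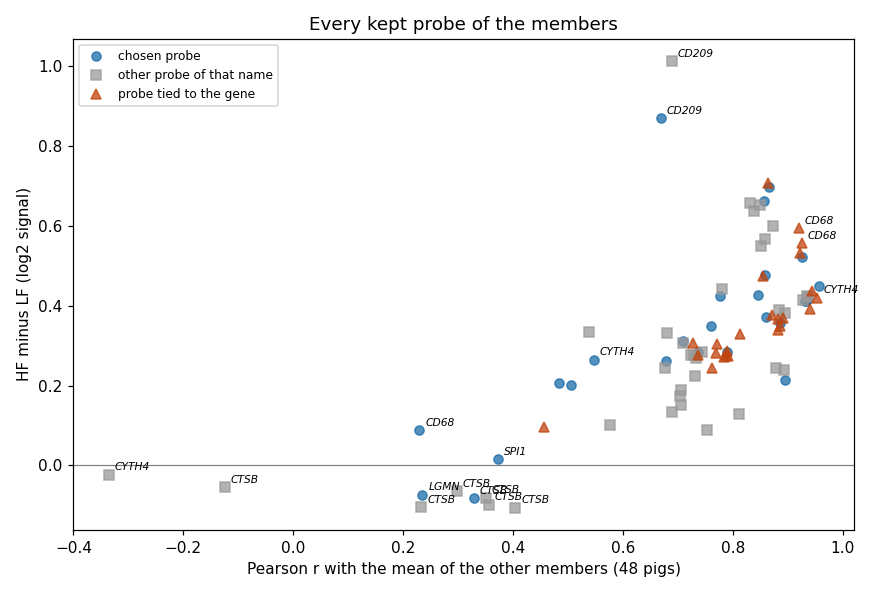
Each kept probe of the members by its r with the mean of the other members over 48 pigs (horizontal) and its HF minus LF difference in log2 signal (vertical), for probes used (circles), other probes of the same name (squares) and probes tied to the gene otherwise (triangles). CD68 and CYTH4 appear both at the lower left and at the upper right, with r from 0.23 to 0.93 and from -0.34 to 0.95.

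Among genes that are not members, the 10 with the highest r to the member mean over the 48 pigs were GMFG (0.96), GP91-PHOX (0.94), C1QB (0.93), C1QC (0.92), LY86 (0.92), C1QA (0.91), PIK3CG (0.91), CFP (0.91), BLNK (0.91) and FCGR3B (0.90). The study ranks C1QA, C1QB, C1QC, CFP and CYBB, another name of GP91-PHOX, among the most connected genes of its own covarying list. The list also names 15 of the members. That list was chosen for covarying in these pigs, so the high r of its genes is not independent evidence.

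Other genes of the pathways. Of 17 measured immunoreceptor kinases and actin regulators, 14 were called higher in HF and 1 lower, with a median difference of 0.30. PIK3R5, GMFG, PIK3CG, PTPN6 and CORO1A had differences from 0.46 to 0.35, and PLCG2 was called lower at -0.22. Between lines, PIK3R5 was called at -0.32 (BH p = 0.0649) and, of the lysosomal genes, CTSC at -0.37 (BH p = 0.00137), both lower in low RFI pigs, and these were the only line calls in the pathway lists. The mean of the kinases and actin regulators had r = 0.91 with the member mean. The study's own list, chosen for covarying in these pigs, holds 11 of the 17, so this r is not independent evidence. Of 15 measured other macrophage genes, 5 were called higher (9 with spike-in centring), beside 6.33% of genes with a symbol, namely VSIG4 (0.70), F13A1 (0.38, well above background on 28 of 48 arrays), FCGR3B (0.38), FCGR2B (0.33) and SLC11A1 (0.19), and CEBPA, a transcription factor of myeloid cells that adipocytes also use, was called lower at -0.21. Of the kinases and actin regulators 11 are in the study's own list, 9 of them called higher, and of the other macrophage genes 3 are, all called higher, which is not independent evidence of their direction. Of 25 lysosomal enzymes and membrane proteins, 4 were called higher (CST3 at 0.34, TPP1 at 0.25, CTSK and GRN) and 5 lower (CTSH at -0.45, CTSD at -0.40, NPC1 at -0.38, LIPA at -0.29 and CTSA), with a median of -0.06 beside the -0.05 of all genes with a symbol. The share called lower was close to the 18.9% of all these genes, and the count fell to 2 with spike-in centring. The mean of the lysosomal list had r = 0.68 with the member mean.

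Markers of other cells moved with diet or with the members as follows. Of 12 adipocyte markers, none was called higher and 5 lower (LEP at -0.94, then CIDEA, CIDEC, GPD1 and PPARG), beside the 18.9% of genes called lower, and 2 or 3 were called lower with centring on the 75th percentile or spike-ins. The log2 summed level ran from 10.9 to 11.3 in HF pigs and from 10.96 to 11.4 in LF pigs. Their mean had r = -0.64 with the member mean, and -0.53 without the 2 pigs farthest from its median. For PPARG, the study reports the opposite direction by quantitative PCR in the same pigs, with higher levels on the HF diet. Of 11 fibroblast and progenitor markers, none was called, 10 were above 0 with a median of 0.21, the summed level ran from 8.92 to 10.2 against 8.28 to 10.1, and their mean had r = 0.55. Their part in the members' differences was not tested.

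Lymphocyte, granulocyte and other markers were counted in the same way, beside 6.33% of genes with a symbol called higher and 18.9% called lower. With 4 to 12 markers in a list, counts of 0 or 1 are not read as results about a cell type. Of 12 T and NK cell markers 1 was called higher (CD3G at 0.34), with a median of 0.11, a summed level of 7.27 to 7.70 in HF and 7.21 to 7.83 in LF pigs, and r = 0.29 with the member mean, or 0.15 without the 2 pigs farthest from its median. Of 4 B and plasma cell markers none was called, with MS4A1 well above background on 36 arrays, a summed level of 0.26 to 0.70 against 0.22 to 2.31 and r = -0.04. Of 7 neutrophil markers none was called, with a median of 0.22, a summed level of 1.73 to 5.38 against 1.67 to 3.61 and r = -0.10. Of 4 dendritic cell markers CD83 was called at 0.73, with a summed level of 0.52 to 2.65 against 0.06 to 2.62 and r = 0.41, or 0.20 without the 2 farthest pigs. Of 4 mast cell markers none was called, with r = 0.05. Of 9 endothelial markers 1 was called higher in HF (CLDN5 at 0.30), with r = -0.52. Between lines, FLT1 was called lower in low RFI pigs, at -0.25 (BH p = 0.0728). Of 4 erythrocyte markers SLC4A1 and of 4 adrenal and kidney markers AQP2 were called lower in HF, with r = 0.01 and -0.43. Of 4 mesothelium markers none was called, with r = 0.50, or 0.35 without the 2 farthest pigs. The part of these cells in the members' differences was not tested.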

How the data were processed

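The scanner software of the authors (Feature Extraction 10.7.3.1) gave a Cy3 intensity for each spot with flags of 0 or 1, and these were deposited without normalization between arrays. The deposited log2 values were made by the authors in R 2.10.0, who filtered spots, took log2 and centred each array on its median. Each of 38142 entries of that table equalled log2 of the median intensity of 1 spot within 1e-06 on all arrays, while the row name was that of the spot in 2 cases, and names were therefore taken through the values. Flags of 0 or 1 (a score with no scale) were used for background and saturation only. Coordinates are not given, since the build behind the array's annotation is not given in the sources used here.

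Groups came from the sample titles. The log2 values were fitted in limma 3.58.1 (R 4.3.3, lmFit and eBayes), tested on simulated data first. Correlations used Python 3.11.15 with numpy 2.4.6. The members and gene lists were chosen with earlier results of these data known. Values by group are given for members called and for CSF1R, CD163, MRC1, CD68, TYROBP, PTPRC, SPI1, CD14, with CX3CR1 and MARCO named without them, other members by difference and error. From each pathway list at most 6 called genes with the largest difference are named, with the rest of a group's calls named after values were seen. Of the 26 probes used, 12 carried an accession that the RefSeq table (Sscrofa11.1) holds, all 12 with the same symbol. Where nothing says that pigs were unrelated, p-values measure the spread between these pigs. The number of arrays limits the precision. Alternatives were other scalings, filters, models, thresholds and probe choices. Leaving out 1 pig or its slide and reading probes of other names were added after seeing the data.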

Additional observations from a re-analysis of the deposited data

How the results depend on the processing

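The number of members called by diet stayed between 14 and 21 under all alternatives except a 1.5-fold threshold, where it was 3, and none was called lower. Where thresholds were unchanged, the share of all features called by diet ran from 17.6% (no filter on dim probes) to 31.1% (spike-in centring). Of the 15, 13 kept their call under every alternative but that threshold, the exceptions being CYTH4 (mean of its probes, and only probes well above background) and FOLR1 (analysis of variance, replicate block and slide block). Of 491 recomputed diet differences of single members, 440 kept direction and call, 16 lost the call and 33 gained it. CTSB (0.044) and LGMN (0.052) turned above 0 with spike-in centring, which shifts all probes. With only probes well above background on all 48 arrays, 23 members could be tested, without CYTH4, CD68 and SPI1.

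With the replicate number of the titles as a block, 15 members were called by diet and 1 by line (LGMN). The 4 arrays of a number lay on 1 slide, and 38 of the 72 pairs of the same number correlated over 0.1 in their deviations, with a median of 0.12 against -0.01 for other pairs, and 18 of 48 arrays correlated best with their own number. The titles do not say what a number stands for, so the comparison without the block was kept. The replicate block changed the diet call of FOLR1 and CTSS and no other member's.

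Within low RFI pigs 3 members were called by diet, against 10 and 9 with the processed and median signal centred on the 75th percentile, 7 with normexp, 7 with quantiles, 18 with spike-in centring, 6 with slide as a block, 12 with array weights, 0 at 1.5-fold, 17 without the LF pig and 19 without its slide. Within high RFI pigs 1 was called, against 2 with the processed signal, 3 and 4 on the 75th percentile, 3 with normexp, 2 with quantiles, 2 with array weights, 0 at 1.5-fold, 5 without the LF pig and 2 without its slide. With spike-in centring 9 other macrophage genes were called higher, and 2 lysosomal genes and 2 adipocyte markers lower. On the 75th percentile 3 and 2 adipocyte markers were lower. At 1.5-fold, 1 other macrophage gene, 0 kinases and actin regulators, 0 lysosomal genes in either direction and 1 adipocyte marker were called. The cause of these moves was not tested, and the share of all probes called within a line at these settings is not given. The median r of the member pairs lay between 0.49 and 0.56 under all alternatives.

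The promoter and protein description planned was not run, since those sequences were not used here. For dim probes the signal over background limits what can be seen.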
